A study of Triticum aestivum with 36 samples.

Results

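The 3 probe sets Ta.160.1.S1_x_at, Ta.160.2.S1_x_at and Ta.160.3.S1_x_at of the Affymetrix Wheat Genome Array detect transcripts of gamma-gliadin or of the low-molecular-weight (LMW) glutenin gene Glu-D3, and were chosen by hand out of the 61290 probe sets on the array. They were picked because their signal in the variety Sonalika was low at 14 days after anthesis (DAA) when the other varieties had risen. The values at 7 and 14 DAA that led to this choice are therefore described without a test, and tests are given for 28 DAA, a stage the choice did not use. Total RNA came from pooled developing seeds of bread wheat (Triticum aestivum) grown in the field, with 3 biological replicates for each of 4 varieties at each of 3 stages, which makes 36 arrays. Chapatti is a flat bread without leaven, for which the study classed C306 and Lok1 as good varieties, whereas WH291 and Sonalika were classed as poor. The stages were 7 DAA (early), 14 DAA and 28 DAA, and no plants received a treatment that set the groups apart. A group is 1 variety at 1 stage, so a difference between varieties holds for these varieties and cannot be separated from other traits that set them apart.

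Gliadins and glutenins are prolamins, the storage proteins that the starchy endosperm makes while the grain fills and that form gluten when flour is wetted. Gamma-gliadins are mostly single-chain proteins that add viscosity to dough, whereas LMW glutenin subunits join through disulphide bonds into the large polymers that give dough its elasticity. The genes of both families are multi-copy, resemble each other in sequence and lie near one another on the short arms of the group-1 chromosomes. Avenin-like proteins are a further group of small, cysteine-rich prolamin relatives, and the high-molecular-weight (HMW) glutenin subunits form the backbone of the gluten polymer.

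The identity of the 3 probe sets was given differently by different sources. The annotation used in the study named all of them as partial gamma-gliadin. The array's own annotation gave 1 gene symbol, LOC543213, to Ta.160.1.S1_x_at and Ta.160.2.S1_x_at, and none to Ta.160.3.S1_x_at. RefSeq lists Glu-D3, GluD3-4, LMW and LMW-GS among the synonyms of that gene. Probe sets with the suffix _x_at hold probes that can bind several related transcripts, so the 3 may read the same transcripts and were not counted as 3 independent genes. Their signals moved together over the 36 arrays, with a Pearson r of 0.999 between Ta.160.2.S1_x_at and Ta.160.3.S1_x_at and of 0.984 between Ta.160.1.S1_x_at and either of them. These correlations describe arrays that share varieties and stages. The gap between Ta.160.2.S1_x_at and Ta.160.3.S1_x_at in one array had a median size of 0.11 and reached at most 0.38 in log2, whereas that between Ta.160.1.S1_x_at and Ta.160.2.S1_x_at had a median of 0.37 and reached 1.56. Ta.160.1.S1_x_at had the lower values of the 3 at 14 DAA outside Sonalika.

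A further probe set with the symbol LOC543213, Ta.160.2.A1_at, did not follow them. It stayed between -1.17 and 2.33 over all arrays, had an r of 0.36 with the mean of the 3, and did not pass the percentile filter. As values are centred, this does not show that its signal was low. Ta.160.3.A1_x_at, which shares the cluster name and carries no symbol, stayed between -0.88 and 2.24.

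All values are log2 signals centred on the median of each probe set over the 36 arrays, so a value of 0 is the median of that probe set and a level can be set only against other arrays of the same probe set. In bulk seed RNA, fewer cells that make a transcript and less transcript per cell cannot be told apart. The labels of 6 arrays were in doubt. The calls of 84 probe sets with a clear on or off state in each variety were compared, and those of the 3 arrays labelled WH291 14 DAA equalled the calls of Lok1 at 14 and 28 DAA in 100% of cases but those of WH291 at 7 DAA in 69.0%. The 3 arrays labelled Lok1 7 DAA matched Lok1 at 14 DAA in 54.8% and no other group in more than 64.3%. Sonalika had the same calls at all 3 stages and C306 nearly so, with at least 98.8%. The labels were kept. Differences of the 3 members between quality groups at 7 and 14 DAA are given with and without these 6 arrays. So are those of Sonalika from the other varieties at 14 DAA. Most other results that use these arrays are given with them only. As a check of the tissue, the 53 other storage protein probe sets had medians between -0.07 and 1.38 on all 12 arrays of 14 DAA. The median of 2 probe sets of starch synthesis (granule-bound starch synthase and ADP-glucose pyrophosphorylase) lay between -0.29 and 2.44 there. That of 9 histone H2A probe sets, which mark dividing tissue, was 0.45 to 3.59 at 7 DAA and -5.29 to -3.70 at 28 DAA.

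At 7 DAA, when the endosperm is young, the signal was high in C306, intermediate in the arrays labelled Lok1, and low in both poor varieties. The Ta.160.1.S1_x_at signal was -0.44, -0.38 and -1.91 in the replicates of C306, -1.91, -0.58 and -3.28 in those of Lok1, -5.94, -5.97 and -3.58 in those of Sonalika, and -3.34, -6.31 and -6.58 in those of WH291. For Ta.160.2.S1_x_at it was 0.06, 0.03 and -1.70 in C306, -1.90, -1.04 and -4.09 in Lok1, -5.98, -5.19 and -3.96 in Sonalika, and -3.44, -6.34 and -6.10 in WH291. The Ta.160.3.S1_x_at signal was 0.09, 0.14 and -1.64 in C306, -1.86, -0.83 and -4.24 in Lok1, -5.96, -5.26 and -4.34 in Sonalika, and -3.15, -6.20 and -6.04 in WH291. The arrays of C306 lay above those of Sonalika and WH291 without overlap for each of the 3 probe sets, and those of Sonalika and WH291 overlapped throughout. The third replicate labelled Lok1 was far below its partners and inside the range of the poor varieties for Ta.160.2.S1_x_at and Ta.160.3.S1_x_at.

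The difference between good and poor varieties at 7 DAA was 3.87 for Ta.160.1.S1_x_at, 3.73 for Ta.160.2.S1_x_at and 3.77 for Ta.160.3.S1_x_at in log2. Without the arrays labelled Lok1 it was 4.38, 4.63 and 4.69, with C306 alone as the good variety, and after cyclic loess normalization of all arrays it was 2.82, 3.26 and 3.42. The study selected storage protein probe sets by this very difference, so its size is a description. Sonalika alone differed from C306 by -4.25, -4.50 and -4.72, and from WH291 by 0.25, 0.25 and -0.06 in the same order, which placed both poor varieties at nearly the same low level.

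**Figure D1:**
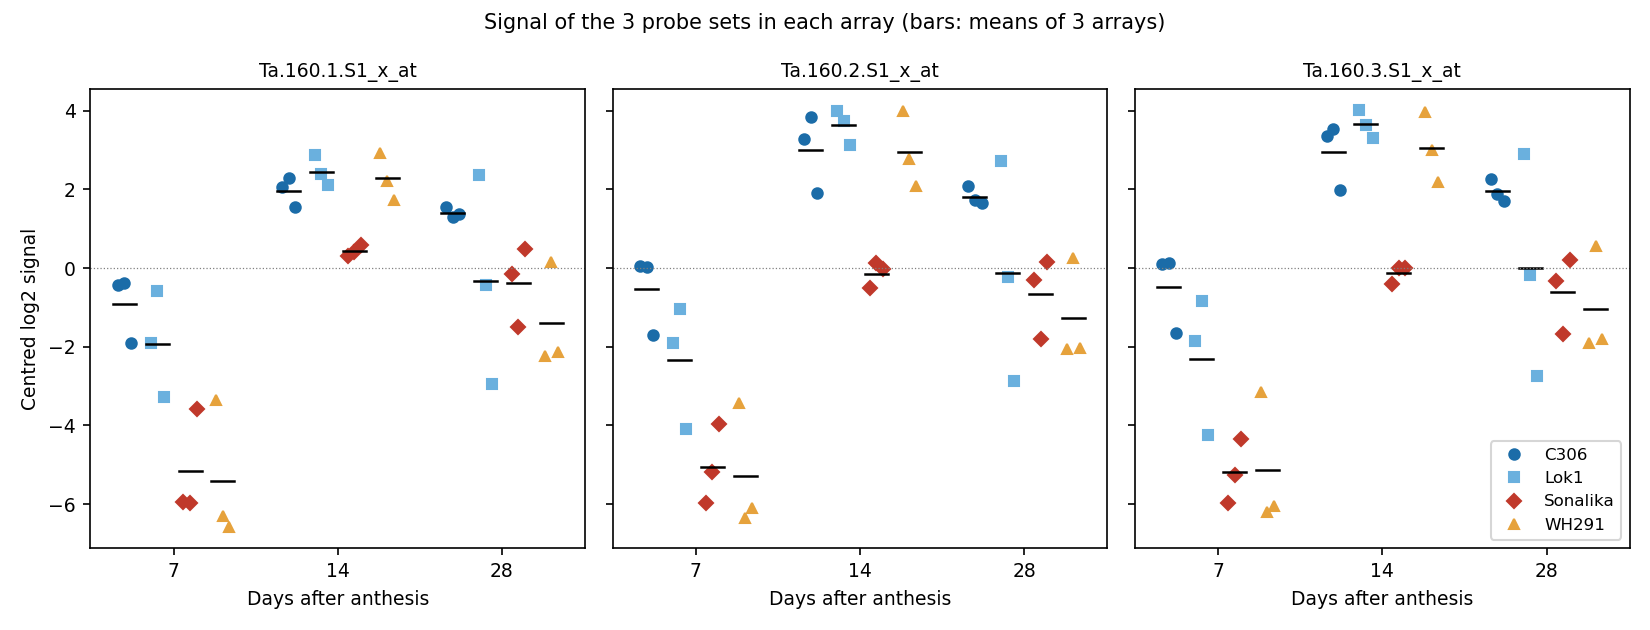
Centred log2 signal (vertical axis) of the 3 probe sets on each of the 36 arrays, by days after anthesis (horizontal axis) and variety (colour and shape); bars are means of 3 replicates. At 14 DAA the Sonalika arrays lie between -0.51 and 0.60 and all other arrays between 1.55 and 4.02, whereas at 28 DAA Sonalika overlaps with Lok1 and WH291 and lies below C306.

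At 14 DAA, the height of storage protein synthesis, Sonalika stood below the other varieties. The Ta.160.1.S1_x_at signal was 0.31, 0.41 and 0.60 in Sonalika, against 2.05, 2.29 and 1.55 in C306, 2.86, 2.39 and 2.10 in Lok1, and 2.91, 2.22 and 1.73 in the arrays labelled WH291. The Ta.160.2.S1_x_at signal was -0.51, 0.12 and -0.03 in Sonalika, against 3.28, 3.85 and 1.90 in C306, 4.0, 3.74 and 3.14 in Lok1, and 3.98, 2.78 and 2.09 in the arrays labelled WH291. The Ta.160.3.S1_x_at signal was -0.39, 0.01 and -0.01 in Sonalika, against 3.34, 3.54 and 1.97 in C306, 4.02, 3.64 and 3.29 in Lok1, and 3.97, 3.01 and 2.18 in the arrays labelled WH291. The 3 Sonalika arrays were below the 9 others for all 3 probe sets, while the other varieties overlapped with each other. Over all 60130 probe sets past the filter, 2.07% had their 3 Sonalika arrays below the 9 others at this stage. Since this separation is what the probe sets were picked for, nothing is read from it.

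Sonalika was lower than the mean of the other varieties at 14 DAA by -1.79 for Ta.160.1.S1_x_at, -3.34 for Ta.160.2.S1_x_at and -3.35 for Ta.160.3.S1_x_at in log2, or 3.47-, 10.1- and 10.2-fold. Without the doubted arrays labelled WH291 the differences were -1.77, -3.46 and -3.43. They were -1.84, -3.40 and -3.42 after cyclic loess normalization of the arrays. The order of the means was Lok1 above WH291 above C306 for Ta.160.1.S1_x_at and Ta.160.3.S1_x_at, with C306 and WH291 nearly level for Ta.160.2.S1_x_at. These 3 varieties differed by at most 0.70 and their replicates overlapped, so no order among them went beyond the spread.

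Sonalika was lowest at 14 DAA but its signal had not stayed flat. From 7 to 14 DAA it rose in Sonalika by 5.60 for Ta.160.1.S1_x_at, 4.90 for Ta.160.2.S1_x_at and 5.06 for Ta.160.3.S1_x_at in log2. The rise in C306 was 2.87, 3.55 and 3.42, smaller than in Sonalika and from a higher starting level. The rise between the arrays labelled Lok1 was 4.37, 5.97 and 5.96, and that between the arrays labelled WH291 was 7.70, 8.24 and 8.18, each of which has doubted arrays at one end. The low position of Sonalika at 14 DAA is therefore a difference in the level reached, not an absence of the rise. These changes include the stages that the choice used and have no test.

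The quality groups of the study place Sonalika together with WH291. Good varieties exceeded poor ones at 14 DAA by 0.84, 1.91 and 1.84 for the 3 probe sets in order, with the Sonalika arrays low and the arrays labelled WH291 as high as those of the good varieties. Leaving out the arrays labelled WH291 gave 1.77, 3.46 and 3.43, with Sonalika as the only poor variety left.

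At 28 DAA, late in grain filling, C306 was high and even, and the other varieties were lower and much more scattered. The Ta.160.1.S1_x_at signal was 1.54, 1.31 and 1.38 in C306, 2.37, -0.42 and -2.94 in Lok1, -0.16, -1.49 and 0.48 in Sonalika, and -2.22, 0.16 and -2.14 in WH291. The Ta.160.2.S1_x_at signal was 2.09, 1.72 and 1.64 in C306, 2.73, -0.23 and -2.88 in Lok1, -0.29, -1.81 and 0.15 in Sonalika, and -2.07, 0.26 and -2.02 in WH291. The Ta.160.3.S1_x_at signal was 2.26, 1.88 and 1.71 in C306, 2.89, -0.17 and -2.73 in Lok1, -0.34, -1.69 and 0.21 in Sonalika, and -1.89, 0.56 and -1.81 in WH291. C306 lay above Sonalika and above WH291 without overlap, Lok1 ran from the highest to the lowest array of the stage, and Sonalika and WH291 overlapped. The SD of the Ta.160.2.S1_x_at signal was 1.03 in Sonalika (n = 3).

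Sonalika overlapped with Lok1 and WH291 at 28 DAA, though not with C306. Its difference from the mean of the other varieties was -0.28 (SE 0.77) for Ta.160.1.S1_x_at, -0.79 (SE 0.81) for Ta.160.2.S1_x_at and -0.91 (SE 0.81) for Ta.160.3.S1_x_at in log2. The limma fit, in which the variance of a probe set borrows from all others, gave p adjusted by the Benjamini-Hochberg method of 0.909, 0.679 and 0.621. None of the 3 passed the threshold of 0.05, nor an unadjusted p of 0.05 with or without the moderation, while 7.04% of all 60130 tested probe sets passed the adjusted one. The 95% intervals ran from -1.85 to 1.29, from -2.44 to 0.86 and from -2.57 to 0.75. The difference of 14 DAA was inside the interval for Ta.160.1.S1_x_at and below it for Ta.160.2.S1_x_at and Ta.160.3.S1_x_at. It was used for the choice and has an error of its own, so no change between the stages is read from this. For Ta.160.1.S1_x_at the sign turned to 0.17 without the first Lok1 replicate and to 0.27 without the second Sonalika replicate. The p-values measure the spread between biological replicates of a variety, and the 9 other arrays stand for 3 varieties.

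Among the 6 pairs of varieties at 28 DAA, the widest gap was between C306 and WH291. C306 exceeded WH291 by 2.81 (SE 0.94) for Ta.160.1.S1_x_at, 3.09 (SE 0.99) for Ta.160.2.S1_x_at and 3.00 (SE 0.99) for Ta.160.3.S1_x_at in log2, with limma adjusted p of 0.0816, 0.0645 and 0.0770. Sonalika was below C306 by -1.80, -2.47 and -2.56, with limma adjusted p of 0.317, 0.151 and 0.134. In limma, 0 of the 18 tests passed the threshold, 5 had an unadjusted p under 0.05 with the moderation and 5 without it. Of all 60130 probe sets, 6.84% passed between Sonalika and C306, 9.16% between Sonalika and Lok1, 6.14% between Sonalika and WH291, 12.5% between C306 and Lok1, 5.48% between C306 and WH291 and 8.07% between Lok1 and WH291. Sonalika differed from Lok1 by -0.06, -0.53 and -0.60 and from WH291 by 1.01, 0.62 and 0.44. For Ta.160.2.S1_x_at the 95% interval of its difference from Lok1 ran from -2.55 to 1.5, and that from WH291 ran from -1.40 to 2.65. The order of the means was C306, Lok1, Sonalika and WH291 for each probe set, with no neighbours in that order that differed past the threshold. Without the first Lok1 replicate, C306 exceeded both Lok1 and WH291 for all 3 probe sets with limma adjusted p between 0.0148 and 0.0333. As the study selected these probe sets for a difference between good and poor varieties, comparisons across the quality classes are not independent of that selection.

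**Figure D2:**
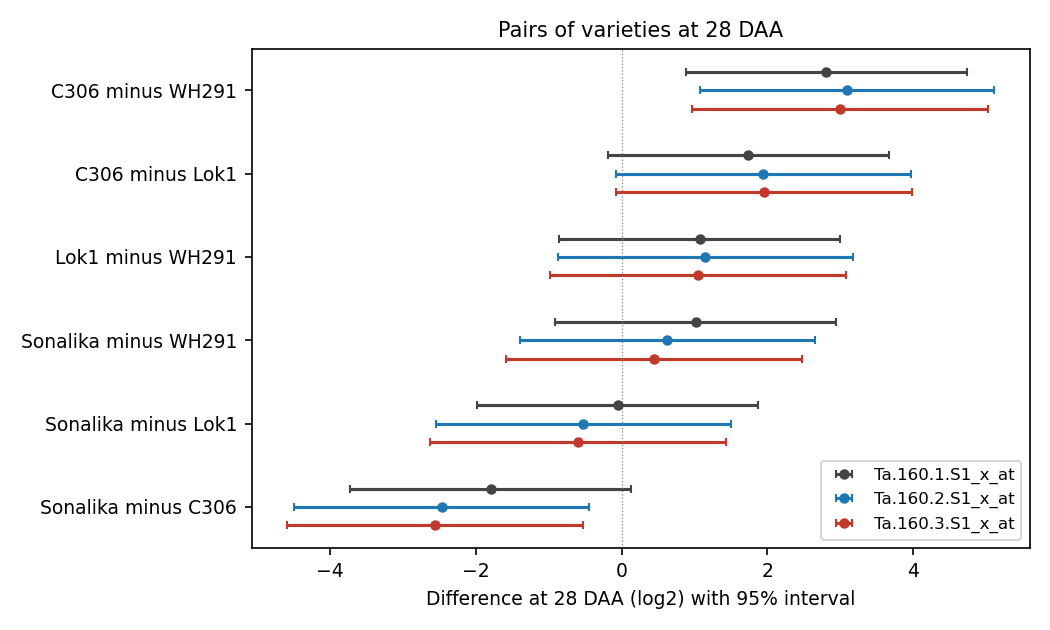
Differences between pairs of varieties at 28 DAA in log2 (horizontal axis) with 95% intervals, for each pair (vertical axis) and probe set (colour). The intervals of C306 minus WH291 lie above 0 for all 3 probe sets, before adjustment over all probe sets.

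From 14 to 28 DAA the signal fell least in Sonalika and C306. The change in Sonalika was -0.83 for Ta.160.1.S1_x_at, -0.51 for Ta.160.2.S1_x_at and -0.48 for Ta.160.3.S1_x_at. In C306 it was -0.55, -1.19 and -1.0, in Lok1 -2.78, -3.75 and -3.65, and between the arrays labelled WH291 -3.69, -4.23 and -4.10. These changes include 14 DAA and have no test.

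The 3 members lay at the low end of a list of storage protein probe sets in Sonalika, which at 14 DAA follows from their choice. This list holds 56 probe sets, the 3 members and 53 others, and all of them passed the filter. Its probe sets are those named gliadin, glutenin or avenin-like among the ones that the study selected for a difference between good and poor varieties. It does not stand for the whole family. At 14 DAA the difference of Sonalika from the other varieties had a median of 0.33 over the 53, from -2.86 to 2.34, and 11 of them were below 0. At 28 DAA the median over the 53 was 2.49, and 1 of them was below 0. The 3 members were the lowest of the 56 at 28 DAA, from -0.91 to -0.28 with SE of 0.77 to 0.81. The next, Ta.9799.1.S1_at, was at -0.19. As the members may read the same transcripts, their ranks are not 3 separate results, and the ranks were not tested. Over all probe sets tested, the median difference at 28 DAA was -0.03.

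In limma at 28 DAA, 15 of the 56 storage protein probe sets were higher in Sonalika than in the other varieties past the threshold, against 3.91% of all probe sets, and 0 were lower, against 3.14%. At an unadjusted p under 0.05, 35 of the 53 others were higher and 0 lower with the moderation, and 33 and 0 without it. The count of 15 fell to 1 without the first Sonalika replicate, to 2 without the third and to 9 without the third Lok1 replicate, and rose to 25 without the first Lok1 replicate. Taken by variety, Sonalika against C306 gave a median of 0.53 over the 56, with 1 of them past the threshold against 6.84% of all probe sets. Against Lok1 the median was 2.78 with 13 past the threshold (9.16% of all), and against WH291 it was 3.71 with 22 (6.14% of all), all of them higher in Sonalika. C306 likewise exceeded Lok1 by a median of 2.15 and WH291 by 3.04. The study selected all of these probe sets on the same arrays, so the list is not independent evidence of its direction.

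By class, the median difference of Sonalika from the mean of the other varieties at 28 DAA lay between 1.74 for the LMW glutenins and 2.83 for the alpha-gliadins, and no test between classes was run. Of the 6 HMW glutenins 3 were called higher, with a class median of 2.70 between the middle members Ta.1257.2.A1_x_at at 2.21 (SE 0.87) and Ta.13254.1.S1_x_at at 3.19 (SE 0.91), and the second of these, named after its value had been seen, passed with a limma adjusted p of 0.0298. The median LMW glutenin, Ta.23142.6.S1_x_at, a probe set for the B3-2 subunit, had 1.74 (SE 1.09), and 0 of 9 were called. The median alpha-gliadin, Ta.27778.4.S1_x_at, had 2.83 (SE 1.14), with 3 of 9 called higher. Among the 18 gamma-gliadins, 4 were called higher, and the median member, Ta.30782.2.S1_x_at, had 2.37 (SE 1.00). The single omega-gliadin, Ta.23896.1.S1_at, a class of gliadins poor in cysteine, had 1.81 (SE 1.08). Of the 13 avenin-like probe sets, 5 were called higher, and the median member, Ta.27777.1.S2_s_at (avenin-like b1), had 2.56 (SE 1.12). Apart from Ta.13254.1.S1_x_at, none of these middle members passed the limma test by itself, with adjusted p from 0.137 to 0.426. The lowest of the list after the members at 28 DAA were Ta.9799.1.S1_at at -0.19, the LMW glutenin Ta.23142.1.S1_x_at at 1.08 and the alpha-gliadin Ta.15268.1.S1_x_at at 1.13.

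**Figure D3:**
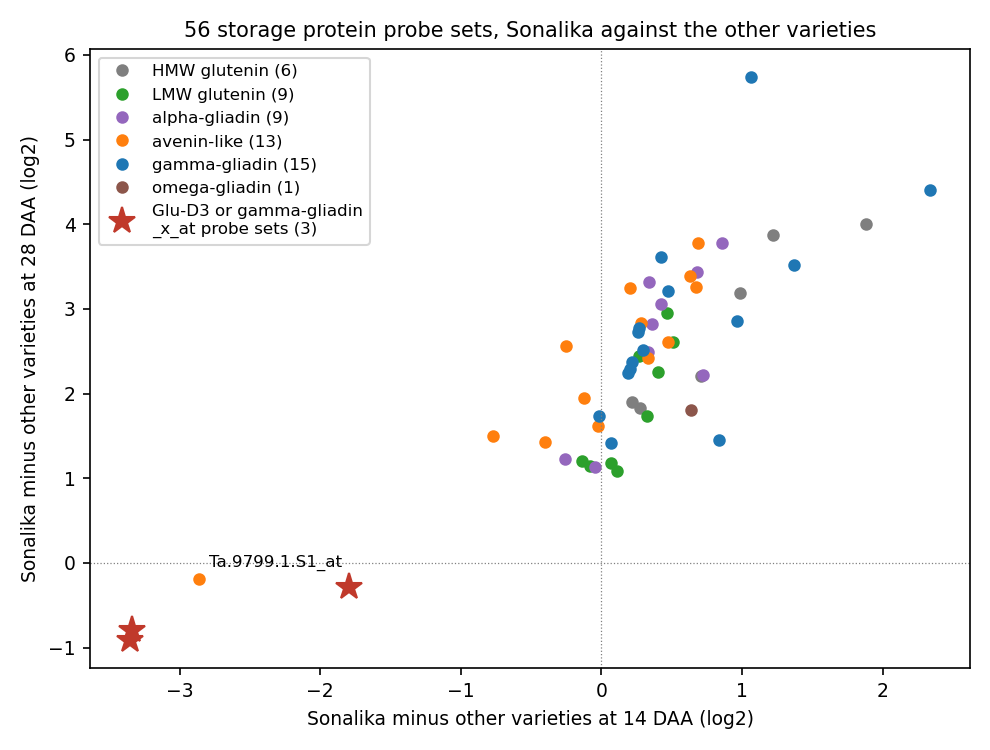
Difference of Sonalika from the mean of the other varieties at 14 DAA (horizontal axis) and 28 DAA (vertical axis) in log2 for 56 storage protein probe sets, coloured by class, with stars for the 3 members. The 3 stars and the avenin-like Ta.9799.1.S1_at lie at or below -1.79 at 14 DAA, and the next lowest probe set lies at -0.77.

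The avenin-like probe set Ta.9799.1.S1_at shared the low position of Sonalika at 14 DAA. Its signal there was 1.04, 0.18 and 0.24 in Sonalika, against 4.69, 3.99 and 1.56 in C306, 3.65, 3.18 and 2.97 in Lok1, and 4.28, 3.93 and 1.86 in the arrays labelled WH291. Its difference from the other varieties was -2.86, which placed it between Ta.160.2.S1_x_at and Ta.160.1.S1_x_at. It was the only 1 of the 53 other storage protein probe sets whose 3 Sonalika arrays lay below the 9 others, or 1.89%, near the 2.07% of all probe sets, and the count is a description. The next lowest were 2 more avenin-like probe sets, Ta.27777.1.S2_at (avenin-like b1) at -0.77 and Ta.27712.1.S1_at at -0.40, with overlapping arrays. At 28 DAA the Ta.9799.1.S1_at signal in Sonalika was -2.21, -3.21 and -1.60, within the range from -4.64 to 1.01 of the others, and limma gave a difference of -0.19 (SE 0.86) with an adjusted p of 0.948.

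**Figure D4:**
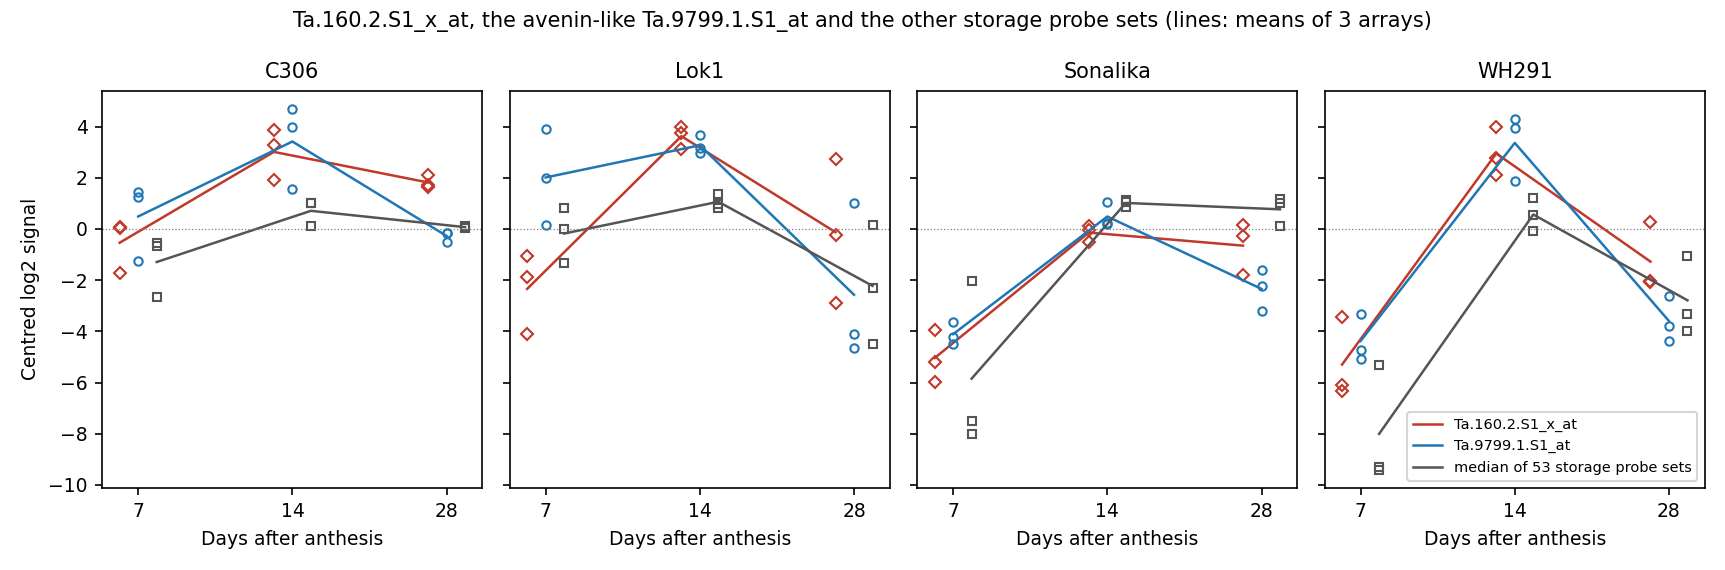
Centred log2 signal (vertical axis) of Ta.160.2.S1_x_at, of Ta.9799.1.S1_at and of the median of the 53 other storage protein probe sets over days after anthesis (horizontal axis), with a panel for each variety, a symbol for each array and lines through means of 3 arrays. At 14 DAA the storage median lies between -0.07 and 1.38 in all varieties, whereas the Ta.160.2.S1_x_at mean is between 2.95 and 3.62 in all but Sonalika, where it is -0.14.

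To set the 3 probe sets against the rest of their class within the same array, the median of the 53 other storage protein probe sets was taken from each of them, a measure added after the values had been seen. This difference for Ta.160.2.S1_x_at at 14 DAA was -1.35, -0.96 and -1.16 in Sonalika and between 1.80 and 2.82 in the 9 others. The storage median itself was alike, with 0.84 to 1.14 in Sonalika and -0.07 to 1.38 in the others. The Ta.160.1.S1_x_at values were -0.66 to -0.52 in Sonalika and 1.05 to 1.80 in the others, and those of Ta.160.3.S1_x_at were -1.23 to -1.06 and 1.87 to 2.78. As the choice used 14 DAA, these values are a description.

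At 28 DAA the same measure again parted Sonalika from the other varieties. For Ta.160.2.S1_x_at it was -1.32, -1.92 and -1.02 in Sonalika, against 1.99, 1.69 and 1.56 in C306, 2.59, 2.08 and 1.61 in Lok1, and 1.92, 1.32 and 1.29 in WH291. Sonalika's differences from the 9 other arrays were -2.69 for Ta.160.1.S1_x_at, -3.20 for Ta.160.2.S1_x_at and -3.32 for Ta.160.3.S1_x_at, lower in 3 of 3 Sonalika arrays. They are a description with no test, as the measure was added after the values had been seen. The wide scatter of Lok1 and WH291 in the signal itself was shared with the storage median, which ran from 0.13 down to -4.49 in Lok1 and from -1.06 to -3.99 in WH291, against 0.03 to 0.10 in C306 and 0.11 to 1.17 in Sonalika.

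The higher storage median of Sonalika at 28 DAA enters this measure. With the same median taken off, 21.5% of all 60130 probe sets and 8 of the 53 other storage protein probe sets had their 3 Sonalika arrays below the 9 others at 28 DAA, against 0.908% and 1 of 53 at 14 DAA. At 28 DAA the separation was therefore common among probe sets, and how much of it is particular to the members was not tested. The members were picked for low Sonalika values at 14 DAA, so nothing is read from their separation at that stage. In the comparison with C306, where the storage medians were closest, the members themselves lay lower in every Sonalika array than in every C306 array. The WH291 arrays also lay below those of C306, and the share of all probe sets with such a separation was not counted. Sonalika minus C306 had limma adjusted p of 0.317, 0.151 and 0.134, for a pair across the quality classes that the study selected on.

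**Figure D5:**
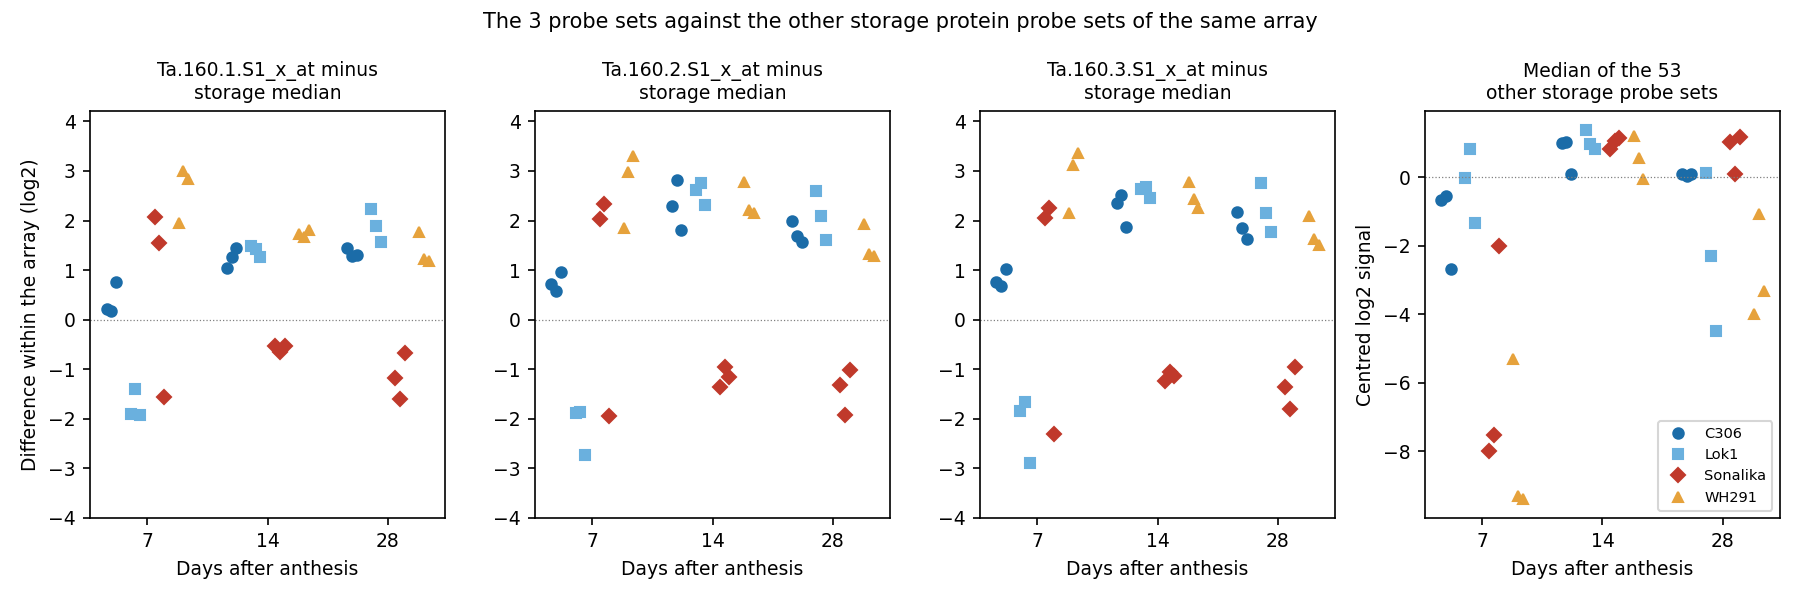
Signal of each of the 3 probe sets minus the median of the 53 other storage protein probe sets of the same array in log2 (first 3 panels) and that median as centred log2 signal (last panel), by days after anthesis (horizontal axis) and variety (colour and shape). Sonalika lies between -1.92 and -0.52 at 14 and 28 DAA and the other varieties between 1.05 and 2.82.

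At 7 DAA the measure followed no such division. For Ta.160.2.S1_x_at it was between 0.58 and 0.97 in C306, between -2.74 and -1.87 in the arrays labelled Lok1 and between 1.86 and 3.30 in WH291. In Sonalika it was 2.03, 2.32 and -1.94, the last in the third replicate, whose storage median of -2.02 stood far above those of -8.01 and -7.51 in its partners. At this stage the arrays labelled Lok1, whose labels were in doubt, were the only group with all 3 values of Ta.160.2.S1_x_at below 0.

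Of the 5 probe sets whose signal was most like that of the 3 members over the 36 arrays, 4 had no gene name. The highest Pearson r with the mean of the 3 among all other probe sets past the filter was 0.903 for TaAffx.4219.1.S1_at, followed by 0.894 for TaAffx.78329.1.S1_at, 0.890 for Ta.1480.1.S1_x_at, 0.890 for Ta.27777.1.S2_at (avenin-like b1) and 0.886 for Ta.2525.1.S1_at. At 14 DAA the differences of Sonalika from the other varieties were between -0.77 and 0.21 for these 5, against -1.79 to -3.35 for the members. Ta.9799.1.S1_at, with the low Sonalika values, had an r of 0.794 and was number 155 in the order. The medians of the storage protein classes had r from 0.781 for the avenin-like probe sets to 0.857 for the omega-gliadin. These values describe arrays that share varieties and stages, and the order of the first 5 changed with the measure of likeness.

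At 14 DAA the ranges of markers of other parts of the seed overlapped between Sonalika and the other varieties. The embryo range of the other varieties was far wider, and its low end was inside their range of -8.01 to -4.30 at 7 DAA. The median of 9 embryo probe sets (Em, Rab15 and other late embryogenesis proteins) lay between 0.12 and 1.14 in Sonalika and between -7.75 and 1.48 in the others at 14 DAA, that of 31 photosynthesis probe sets, mostly rbcL, between 0.00 and 0.06 against -0.16 and 0.16, and that of the histone H2A probe sets between -0.75 and -0.05 against -0.51 and 1.29. At 28 DAA the embryo median was 1.22 to 1.71 in Sonalika and 1.77 to 2.48 in the others, with no overlap. The median of the 2 starch synthesis probe sets lay between -1.72 and 0.53 in Sonalika and between -4.39 and -0.92 in the others. The part of these in the results was not tested. No gene for a regulator of storage protein genes or for protein folding was found by its symbol in the array's annotation.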

How the data were processed

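RNA of developing seeds was hybridized to 36 Affymetrix Wheat Genome Arrays. The deposited log2 values come from the authors, who used RMA in GeneSpring, and the files show a median of 0 over the 36 arrays for every probe set. No pair of arrays shared more than 0.197% of their values. Array annotation names 1273 of the 61290 probe sets. The 111 controls were left out only in the alternative without a filter. In the main analysis, 60130 probe sets passed the methods' filter. This filter asked for all 6 arrays of at least 1 of 6 groups of quality and stage at or above the 20th percentile. Since values are centred, this does not act on level.

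The 12 combinations of variety and stage were fitted with limma 3.58.1 in R 4.3.3 (24 residual degrees of freedom), with Benjamini-Hochberg adjustment over all tested probe sets per comparison at 0.05. The script was tested on simulated data. Tables used Python 3.11.15 with pandas 2.3.3, numpy 2.4.6 and scipy 1.17.1, and figures matplotlib 3.10.9. An on or off state was called where a gap of over 2 in log2 divided a stage's 12 arrays. Precision is limited by the number of arrays. The members, the gene lists and the tests were chosen with earlier results of these data known, and the supplementary comparisons against the storage median were added after seeing the values. Named genes are the members, the 5 probe sets most like them, the 3 lowest in Sonalika at 14 and at 28 DAA in the storage list, the median member of each class and probe sets with the same symbol. Alternatives covered the replicate block, normalization, filter, arrays in the fit, variance model and each 28 DAA array left out.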

Additional observations from a re-analysis of the deposited data

Results flagged for a closer look

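In groups of 6 arrays of 1 quality and stage, 4 of the 36 groups of values tested held an array far from the rest. The rate of about 1 in 20 that chance alone gives in a single such test does not apply to this count. The probe sets move together, 1 array was found through all 3 of them, and each group pools varieties. For Ta.160.3.S1_x_at at 14 DAA, the third C306 replicate was at 1.97, with the nearest of the other good arrays at 3.29. The third Sonalika replicate at 7 DAA was apart for all 3 probe sets when the storage median of its array was taken off, with -1.56 for Ta.160.1.S1_x_at (nearest other 1.55), -1.94 for Ta.160.2.S1_x_at (1.86) and -2.32 for Ta.160.3.S1_x_at (2.05). The storage median of that array was -2.02, against -8.01 and -7.51 in the other Sonalika replicates.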

How the results depend on the processing

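With 3 arrays a group, the intervals at 28 DAA were wide. Even C306 minus WH291 of 3.09 for Ta.160.2.S1_x_at missed the threshold, with a limma adjusted p of 0.0645. The absence of a call for Sonalika against the mean of the others at 28 DAA held under every alternative run for the 3 probe sets, with adjusted p from 0.324 to 0.995. Leaving out single 28 DAA arrays, the difference ran from -0.72 to 0.27 for Ta.160.1.S1_x_at, from -1.25 to -0.21 for Ta.160.2.S1_x_at and from -1.36 to -0.37 for Ta.160.3.S1_x_at. The count of calls among the 18 tests of pairs, 0 in the main analysis, ran from 0 to 6 in the same way and became 5 with array weights. Those 5 were C306 minus WH291 for all 3 probe sets (adjusted p 0.0238, 0.0188 and 0.0234) and C306 minus Lok1 for Ta.160.2.S1_x_at and Ta.160.3.S1_x_at (0.0481 and 0.0468). Without the 3 arrays labelled Lok1 28 DAA, an alternative chosen after seeing the data, C306 minus WH291 had adjusted p of 0.0253, 0.0175 and 0.0227.

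Signs turned for pairs without a call. Sonalika minus Lok1 became 0.61, 0.18 and 0.087 with array weights and ran from -1.36 to 1.29, from -1.90 to 0.90 and from -1.97 to 0.84 with single arrays left out. Lok1 minus WH291 ran from -0.28 to 2.37, from -0.28 to 2.53 and from -0.40 to 2.41, and C306 minus Lok1 for Ta.160.1.S1_x_at became -0.057 after cyclic loess. The count of 15 storage protein probe sets ran from 1 to 25 with single arrays left out and was 25 with array weights and 9 without moderation. Of the 5 probe sets most like the members, 1 was still among the first 5 by Spearman rho, 2 without the 6 doubted arrays and 1 over the 12 means of variety and stage. The good minus poor difference at 14 DAA became 1.77, 3.46 and 3.43 without the doubted arrays. Sonalika's difference from the other arrays in signal minus storage median at 28 DAA ran from -3.53 to -2.09 over the alternatives. These were chosen after seeing the data.

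Replicate numbers did not pair the samples, with correlations of deviations from -0.546 to 0.531 between arrays of the same number at a stage. With the replicate block, 1 of the 18 tests of pairs passed, C306 minus WH291 for Ta.160.2.S1_x_at (3.09, adjusted p 0.0437). The planned filter at the 40th percentile passed more probe sets than the main one because it asked for 3 arrays instead of 6.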
